A study of Bos taurus with 15 samples.

Results

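Interferon tau and a pair of genes known from interferon responses, MX1 and UBD, were followed through the first days of cattle development. The 3 genes, IFNT2, MX1 and UBD, were selected by name, as every probe set carrying the platform's symbol or an older name of the same gene identifier. The choice was made with earlier results of these data known. Each had 1 probe set, so the set held 3 of the 9155 genes named on the array and 3 of the 24016 probe sets tested. None of the 3 probe sets was shared with another gene's symbol.

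The samples were bovine (Bos taurus) oocytes and in vitro fertilised embryos, and 1 Affymetrix Bovine Genome array was hybridised per sample. There were 3 arrays of oocytes, 2 of 1-cell embryos, 1 each of 2-cell, 4-cell, 8-cell and 16-cell embryos, 3 of morulae and 3 of blastocysts, 15 in all. All groups came from cumulus-enclosed oocytes of aspirated follicles, matured with LH, FSH and fetal calf serum, and no group received any other treatment, per the labels. Cumulus cells, the somatic cells around the oocyte, were stripped by vortexing after fertilisation, and the labels give neither the maturation point nor the stripping of the oocyte samples, nor how many embryos made a sample. The whole embryo was sampled, so in what follows a change in the number of cells of a type and a change in RNA per cell cannot be told apart.

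Interferon tau is a type I interferon found in ruminants. It is made by the trophectoderm, the outer epithelium of the blastocyst, and in cattle it is the signal by which the conceptus keeps the corpus luteum active. Like other type I interferons it binds the receptor pair IFNAR1 and IFNAR2, and the kinases and STAT proteins behind that receptor switch on interferon-stimulated genes. MX1 encodes a GTPase that blocks viruses and is a classic gene of this response, also in the uterus and blood of early pregnant cows. UBD encodes FAT10, a ubiquitin-like protein that tags other proteins for the proteasome and that is known in human cells to be induced by interferon gamma and tumour necrosis factor.

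In the RefSeq annotation of assembly ARS-UCD2.0, IFNT2, which also carries the names IFNT, IFNT1, TP-1 and IFN-tau-c2, lies between the interferon tau genes IFNT3 and IFN-tau-c1. Copies of interferon tau are nearly identical, so the IFNT2 probe set may also have read transcripts of its neighbours, and its signal is uncertain as a measure of this 1 copy. MX1 lies between MX2 and TMPRSS2, and UBD lies among olfactory receptor genes, between OR2H1 and OR10C1. MX2, the paralog of MX1, had its own probe set, with a signal of 42.4 on the 2-cell array and at most 13.8 on the other 14.

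The arrays had mean signals of 558 to 717 and median signals of 39.7 to 61.7, in the units of the deposited intensities, and their number limited the precision. Spiked-in bacterial control transcripts gave signal on 9 of the 15 arrays (oocyte 2 and 3, 1-cell 2, morula 3, blastocyst 3 and the 4 single arrays), so that the replicated stages held arrays of both kinds. KRT18, a keratin of simple epithelia such as the trophectoderm, averaged 22.2 ± 16.6 in oocytes, 2906 ± 1843 in morulae and 9413 ± 2032 in blastocysts (SD, n = 3 each). ZP2, a glycoprotein of the zona pellucida around the egg, was at 9661 to 12718 on every array before the 16-cell stage and at 19.9 to 146 in morulae and blastocysts. Both markers went with the stage labels. The cyclophilin control, read at its middle and at its 3' end to judge the length of the labelled RNA, had middle over 3' ratios of 0.0141 to 0.102 in oocytes, 0.0628 to 0.134 in 1-cell embryos, 0.178 to 0.322 in morulae and 0.499 to 0.766 in blastocysts, and its part in the changes between stages was not tested.

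IFNT2 was low until the morula and high in the blastocyst. Its signal was 31.0, 24.3 and 13.4 in oocytes, 20.2 and 21.1 in 1-cell embryos, and 31.0, 21.1, 13.5 and 29.9 on the 2-cell, 4-cell, 8-cell and 16-cell arrays. It was 87.6, 50.8 and 15.5 in morulae, and 564, 523 and 1543 in blastocysts. All 3 blastocyst arrays lay above every other array, morula 3 lay inside the range of the earlier stages, and morula 1 and 2 lay above it. Within its array, the IFNT2 signal was as high as or higher than 79.0%, 79.0% and 89.1% of the probe sets on the blastocyst arrays, and than 24.7% to 55.7% on the other 12.

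UBD was likewise low until the morula and high in the blastocyst. Its signal was 12.6, 13.9 and 12.4 in oocytes, 16.9 and 17.3 in 1-cell embryos, and 27.1, 22.4, 6.27 and 27.0 on the 2-cell to 16-cell arrays. It was 44.4, 40.2 and 4.09 in morulae, and 646, 2732 and 860 in blastocysts. Again every blastocyst array exceeded every other array, and morula 3 was the lowest of all 15. Blastocyst 2 had the highest UBD and the lowest IFNT2 of the blastocyst arrays, and blastocyst 3 had the highest IFNT2, so the pair did not rank the blastocyst samples alike.

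MX1 followed another course. Its signal was 276, 214 and 327 in oocytes, 4.75 and 10.5 in 1-cell embryos, and 9.41, 5.81 and 11 on the 2-cell, 4-cell and 8-cell arrays. It was 1399 on the single 16-cell array, 6.29, 6.03 and 3.19 in morulae, and 42.7, 27.6 and 48.3 in blastocysts. Oocytes were thus high, the 1-cell to 8-cell arrays and the morulae low, blastocysts between them, and the 16-cell array above everything else. Among the replicated stages the mean was highest in oocytes and next highest in blastocysts. The low 1-cell and morula arrays overlapped and are given no order. The oocyte signals stood at or above 72.5% to 77.3% of the probe sets of their arrays, the 1-cell signals at or above 9.95% and 20.3%, and the blastocyst signals at or above 36.8% to 49.7%.

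**Figure D1:**
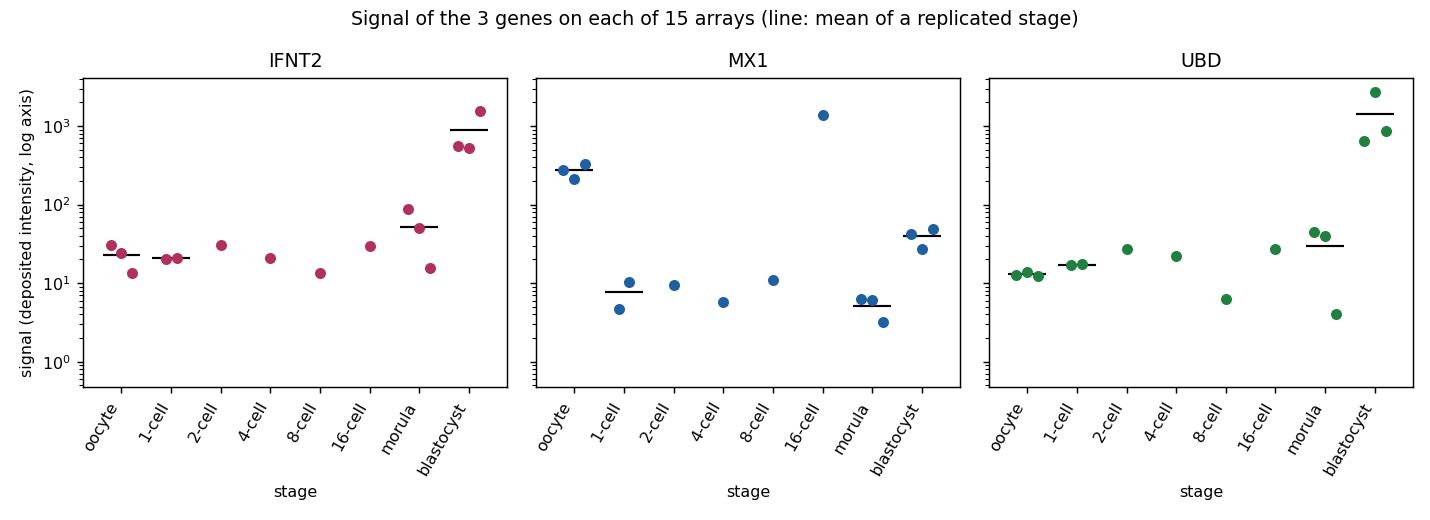
Signal (deposited intensity, log axis) of IFNT2, MX1 and UBD on each of the 15 arrays, by stage, with a line at the mean of each replicated stage. IFNT2 and UBD are highest on all 3 blastocyst arrays, whereas MX1 is high in oocytes, reaches 1399 on the single 16-cell array and is at most 48.3 in blastocysts.

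The onset of interferon tau was read from blastocysts against morulae, with limma on log2(signal + 16), where p-values were adjusted by Benjamini-Hochberg across the 24016 probe sets and called under 0.05. IFNT2 averaged 877 ± 577 in blastocysts and 51.3 ± 36.1 in morulae (SD, n = 3 each), and it rose by 3.71 on the log2 scale (SE 0.52, limma adjusted p = 0.0327), a 13.1-fold change on the scale of signal + 16, as are all folds here. UBD averaged 1413 ± 1147 in blastocysts and 29.6 ± 22.1 in morulae (SD, n = 3 each), and it rose by 4.84 (SE 0.56, limma adjusted p = 0.0137), a 28.6-fold change. Of the 3 genes 2 were called higher, where 29 of all probe sets, or 0.121%, were, with 0.0458% lower and 0.167% in either direction. By size, UBD was the 6th and IFNT2 the 25th largest rise among the 24016 probe sets. The genes were chosen with earlier results of these data known, so these shares and ranks are a description and no test.

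The call for IFNT2 was close to its threshold. With the replicate number as a block, a possible pairing that the labels do not state, it had adjusted p = 0.0769 at the same change of 3.71, and UBD had 0.0198. With the class of spike-in signal as a block, IFNT2 changed by 3.71 (adjusted p = 0.0462) and UBD by 4.84 (adjusted p = 0.0169). Among the arrays without spike-in signal IFNT2 changed by 2.75 (adjusted p = 0.207) and UBD by 4.53 (adjusted p = 0.217), and between the single arrays of each stage with spike-in signal by 5.63 and 5.45 (adjusted p = 0.468 for both). Without morula 2 the adjusted p-values were 0.130 for IFNT2 and 0.0517 for UBD, and without morula 3 or blastocyst 2 that of IFNT2 was 0.0778 or 0.0747. The direction was the same in each of these fits.

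MX1 did not pass the test between these stages, although its arrays did not overlap. It averaged 39.5 ± 10.7 in blastocysts and 5.17 ± 1.72 in morulae (SD, n = 3 each). Its log2 change of 1.37 (SE 0.27, limma adjusted p = 0.101) was the 897th largest rise, and it was 2.72 with a pseudocount of 1 and 0.58 with one of 64. Its adjusted p lay between 0.0659 and 0.680 over the 19 alternative fits, under 0.05 in 0 of them. The unadjusted p was 4.38e-04. The change is given on log2(signal + 16), where the added 16 shrinks differences between signals as low as those of the morulae. Signal over background was not known, so the size of the change at such signals is uncertain.

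Against oocytes, blastocysts had more IFNT2 and UBD and less MX1. IFNT2, with 22.9 ± 8.87 in oocytes (SD, n = 3), was 4.36 higher on the log2 scale in blastocysts (SE 0.52, limma adjusted p = 3.72e-04), and UBD, with 13.0 ± 0.833 in oocytes (SD, n = 3), was 5.33 higher (SE 0.56, limma adjusted p = 1.87e-04). MX1, with 272 ± 56.5 in oocytes (SD, n = 3), fell by 2.38 (SE 0.27, limma adjusted p = 2.67e-04), a 5.20-fold lower level in blastocysts. None of the 3 overlapped between the stages, and all 3 were called, against 19.3% of all probe sets. The background was 11.9% of probe sets called higher and 7.36% called lower, far above that of blastocysts against morulae.

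**Figure D2:**
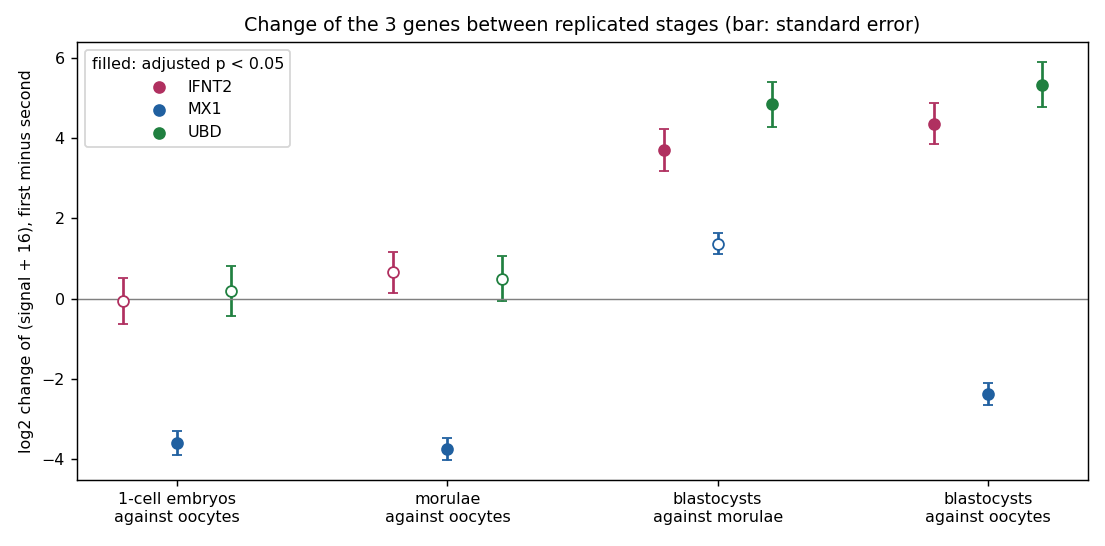
Log2 change of signal + 16 (vertical axis, first stage minus second) for IFNT2, MX1 and UBD in 4 comparisons of replicated stages, with standard errors as bars and filled points for adjusted p under 0.05. IFNT2 and UBD change in both blastocyst comparisons, and MX1 is -3.60, -3.75 and -2.38 against oocytes and open at 1.37 for blastocysts against morulae.

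MX1 was lower in 1-cell embryos than in oocytes. It averaged 7.62 ± 4.05 in 1-cell embryos (SD, n = 2) and 272 ± 56.5 in oocytes (SD, n = 3), a log2 change of -3.60 (SE 0.30, limma adjusted p = 0.00707) and a 12.1-fold lower level. Of the 3 genes 1 was called lower, against 9 of all probe sets, or 0.0375%, and none of the 3 was called higher, against 0.233%. The named genes among these 9, GEM, MX1, GAL, RACK1, CRABP2 and C10H15orf48, were listed after their values were seen. GEM, a small GTPase of the RGK family, changed by -4.91 (SE 0.59, limma adjusted p = 0.0163), and GAL, the neuropeptide galanin, by -3.10 (SE 0.43, limma adjusted p = 0.0299). IFNT2 changed by -0.06 (SE 0.58) and UBD by 0.19 (SE 0.63), each with limma adjusted p = 1.

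The fall of MX1 was -5.05 with a pseudocount of 1 and -2.22 with one of 64, and its call rested on a spread shared by all stages. It was -3.59 with the spike-in class as a block (limma adjusted p = 0.0122), -3.82 between the arrays without spike-in signal (adjusted p = 0.103) and -3.41 between those with it (adjusted p = 1), where 1 residual degree of freedom was left. With the arrays of the compared stages alone the same -3.60 had adjusted p = 0.482. The fit with a replicate block called 38 probe sets in this comparison in place of 65, MX1 among them at -3.54 (adjusted p = 0.0208).

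MX1 was also low in morulae. It averaged 5.17 ± 1.72 in morulae and 272 ± 56.5 in oocytes (SD, n = 3 each), which is a log2 change of -3.75 (SE 0.27, limma adjusted p = 2.73e-05), 13.5-fold lower, and -5.49 and -2.27 with pseudocounts of 1 and 64. Of the 3 genes 1 was called, lower in morulae, against 18.9% of all probe sets called, 11.8% higher and 7.16% lower. IFNT2 changed by 0.65 (SE 0.52, limma adjusted p = 0.439) and UBD by 0.50 (SE 0.56, limma adjusted p = 0.602), with overlapping arrays. Their morula signals depended on the array: between the arrays with spike-in signal, which took in morula 3, the changes were -0.13 for IFNT2 and -0.54 for UBD.

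Markers of the cumulus cells that surround the oocyte were set beside the fall of MX1. Their summed signal over 23 measured genes was 9083 to 10283 in 1-cell embryos and 9109 to 13136 in oocytes. By limma 0 of the 23 were called between these stages, where 0.284% of all genes were called higher and 0.0655% lower. At those shares a count of 0 does not set the list apart. At an unadjusted limma p under 0.05, 0 were higher and 4 lower, where 646 and 180 of all 9155 genes were. TNFAIP6, a protein of the expanded cumulus matrix, had signals of 2.45 and 94.7 in 1-cell embryos and 562, 70.2 and 1072 in oocytes. VCAN, a proteoglycan of the same matrix, had 379 and 555 in 1-cell embryos and 713 to 1396 in oocytes. GJA1 had 109 and 30.1 in 1-cell embryos and 692, 311 and 85.3 in oocytes, and FST had 30.1 and 23.6 against 104, 124 and 28.2. PTX3 had 397 and 490 in 1-cell embryos and 428, 416 and 20.6 in oocytes, and HAS2, the hyaluronan synthase, had 1913 and 856 in 1-cell embryos and 1310 to 1776 in oocytes. No marker of the list was read as absent, since the files hold no detection calls, and the part of these cells in the MX1 level of oocytes was not tested.

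The receptor of interferon tau was measured throughout and did not pass the test in any of the 4 comparisons. IFNAR1 had signals of 100, 50.4 and 23.9 in oocytes, 34.7, 47.7 and 68.7 in morulae and 43.3, 31.1 and 55.3 in blastocysts. IFNAR2 had 98.7, 71.9 and 55.5 in oocytes, 21.4, 50.4 and 39.9 in morulae and 40.3, 63.7 and 42.5 in blastocysts. The stages overlapped for IFNAR1, and IFNAR2 overlapped between blastocysts and morulae, while its morula arrays lay under its oocyte arrays at a change of -0.79 (SE 0.31, limma adjusted p = 0.114).

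Behind the receptor, a list of 12 measured receptor and signalling genes had 1 gene higher and 2 lower in blastocysts against oocytes, where 18.1% of all genes were called higher and 9.00% lower. The median log2 change of the list was -0.17, against 0.11 over all genes. JAK1, a kinase bound to the receptor, had 3290 ± 927 in blastocysts and 4204 ± 828 in oocytes (SD, n = 3 each), and did not pass (-0.37, SE 0.49, limma adjusted p = 0.674). STAT3 had a log2 change of -2.96 in blastocysts (SE 0.83, limma adjusted p = 0.0321). Its call was lost without oocyte 1 or 2 or without blastocyst 1 or 2, at adjusted p-values of 0.0511, 0.115, 0.100 and 0.107. The second probe set of STAT3 changed by -4.35 (limma adjusted p = 0.00575), with 213, 71.9 and 1006 in blastocysts and 8742, 5317 and 3685 in oocytes. PIAS1, which restrains STAT proteins, changed by -1.90 (SE 0.39, limma adjusted p = 0.00738). USP18, a brake on the type I interferon receptor, had 48.8, 40.6 and 64 in blastocysts and 15, 11.3 and 7.42 in oocytes, and it rose by 1.30 (SE 0.25, limma adjusted p = 0.00513), while the mean of its 4 probe sets changed by 0.45 (adjusted p = 0.0693).

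In morulae against oocytes the same list had 2 genes higher and 1 lower, where 17.8% of all genes were called higher and 8.67% lower. PTPN6, a phosphatase of cytokine signalling, had 113, 218 and 365 in morulae and 14.4, 4.09 and 17.5 in oocytes, a log2 change of 3.04 (SE 0.44, limma adjusted p = 0.00101). IRF9, an interferon regulatory factor of the type I response, had 91.0, 54.3 and 104 in blastocysts and 49.2, 53.0 and 5.07 in morulae, and did not pass (1.08, SE 0.49, limma adjusted p = 0.646). Between blastocysts and morulae 0 of the 12 were called by limma, where 0.175% of all genes were called higher and 0.0874% lower. At an unadjusted limma p under 0.05, 0 were higher and 1 was lower.

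The interferon-stimulated antiviral genes were read as a list without MX1, which itself was not called between blastocysts and morulae. The list named 58 genes, of which 36 were measured. Of these 36, 0 were called between blastocysts and morulae by limma, with 2 higher and 1 lower at an unadjusted p under 0.05. In each of the 18 alternative fits run for the list 0 were called, but some of those fits called 0 of all probe sets. The median log2 change was -0.06, against -0.04 over all genes, of which 0.175% were called higher and 0.0874% lower. With so few calls over all genes, a count of 0 does not set this list, or another list in this comparison, apart. ISG15, a ubiquitin-like protein and a classic gene of the response to interferon tau in the uterus, had signals of 19.4, 17 and 13.8 in blastocysts and 17.1, 20.0 and 24.5 in morulae, which overlapped. RSAD2, the antiviral protein viperin, had 34.1, 19.4 and 20.2 in blastocysts and 23.4, 28.7 and 15.5 in morulae, which overlapped as well. XAF1 had 21.5, 37.7 and 38.1 in blastocysts and 15.6, 13.5 and 8.79 in morulae, without overlap (0.75, SE 0.27). EIF2AK2 had 19.6, 33.3 and 18.6 against 9.46, 5.45 and 15.4 (0.61, SE 0.23), while its second probe set changed by -0.98. HERC6 was lower, at 4.42, 1.02 and 1.45 against 7.96, 6.39 and 6.54 (-0.33, SE 0.10).

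Against oocytes, 1 of the 36 was higher and 3 were lower in blastocysts, and 1 was higher and 4 were lower in morulae, with a median of -0.25 in both comparisons. The higher calls were 2.78% of the list in both, against 18.1% of all genes in blastocysts and 17.8% in morulae, and the lower calls, 8.33% in blastocysts and 11.1% in morulae, were near the 9.00% and 8.67% of all genes. IFI35 had 27.4 ± 8.90 in oocytes, 495 ± 134 in morulae and 566 ± 216 in blastocysts (SD, n = 3 each), and it was higher by 3.69 (SE 0.39, limma adjusted p = 1.91e-04) in blastocysts and by 3.54 (SE 0.39, limma adjusted p = 2.35e-04) in morulae than in oocytes. ISG15 changed by -3.60 (SE 0.67, limma adjusted p = 0.00439) in blastocysts and by -3.44 (SE 0.67, limma adjusted p = 0.00546) in morulae, with 156, 219 and 1517 in oocytes. EPSTI1 changed by -3.16 (SE 0.67, limma adjusted p = 0.00831) in blastocysts. In morulae it changed by -2.15 (SE 0.67, limma adjusted p = 0.0488), and that call was lost with the replicate block (adjusted p = 0.0627). Leaving out oocyte 1 or 2 gave 0.127 and 0.164, and leaving out morula 1 or 2 gave 0.132 and 0.143. UBE2L6, the conjugating enzyme of ISG15, changed by -2.36 (SE 0.58, limma adjusted p = 0.0180) in blastocysts, and the call was lost without blastocyst 1 or 2 (adjusted p = 0.0519 and 0.0661), while the mean of both its probe sets changed by -1.23 (adjusted p = 0.0582).

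Between 1-cell embryos and oocytes 0 of the 36 were called by limma, with 2 higher and 2 lower at an unadjusted p under 0.05, where 0.284% of all genes were called higher and 0.0655% lower. ISG15 had 10.8 and 15.4 in 1-cell embryos, under all 3 oocyte arrays, and changed by -3.77 (SE 0.75, limma adjusted p = 0.0886). PARP12, SHISA5, EPSTI1 and LGALS3BP were named by their mean signal, which sets no order of levels between probe sets. PARP12 had 6183, 4955 and 2342 in blastocysts against 15303 to 16200 in oocytes (-1.92, SE 0.75, limma adjusted p = 0.108). This was 1 of its 4 probe sets. Another was called, at 62.3, 68.8 and 20 in blastocysts and 972 to 1639 in oocytes (-4.45, limma adjusted p = 1.61e-04). The others changed by -0.37 and -1.03 without a call (limma adjusted p = 0.552 and 0.0832).

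**Figure D3:**
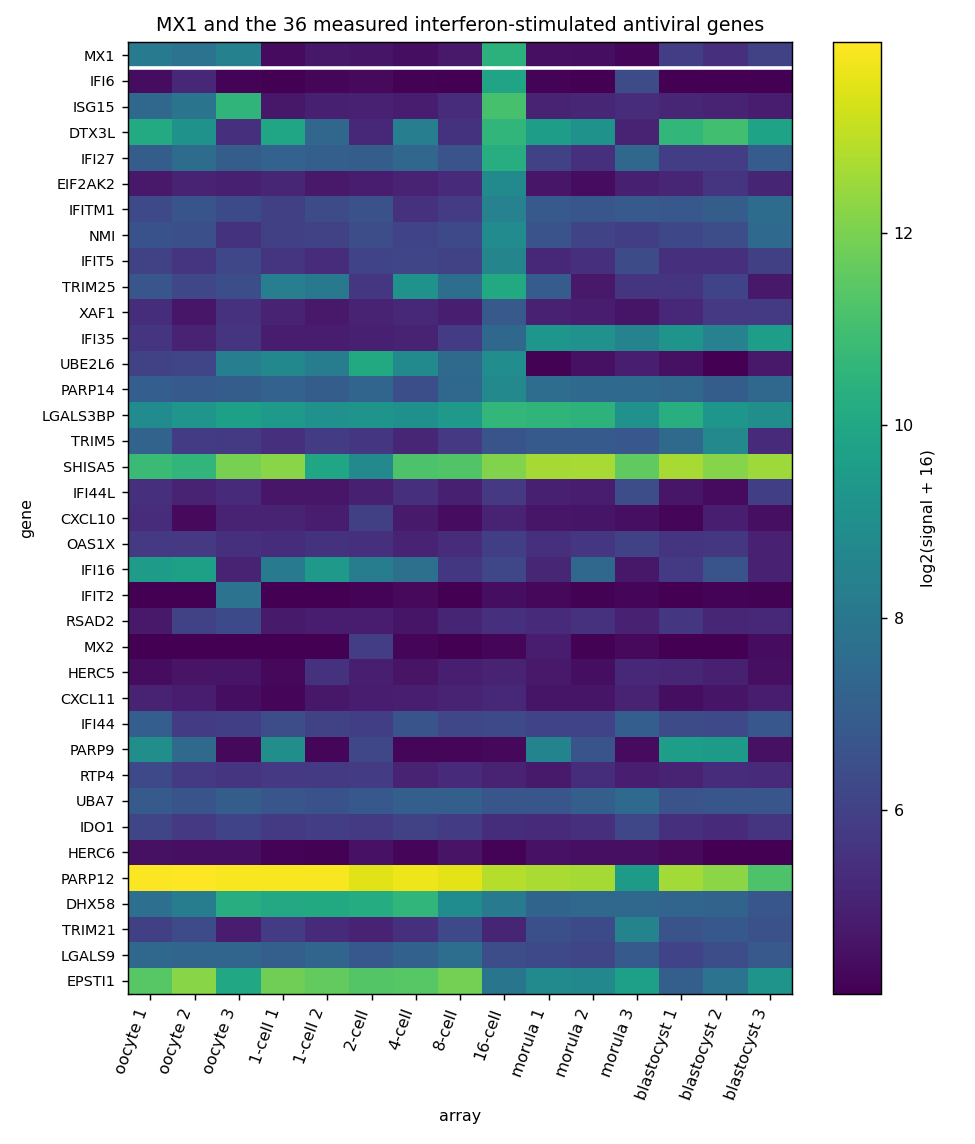
Log2(signal + 16), as colour, of MX1 (top row) and the 36 measured interferon-stimulated antiviral genes (rows) on the 15 arrays (columns), with rows ordered by the 16-cell minus 8-cell difference. Colours compare arrays within a row, and the 16-cell column is bright for MX1, ISG15, IFI6, IFI27 and EIF2AK2 while the blastocyst columns are not.

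The 1399 of MX1 on the 16-cell array stood 5.71 above the 8-cell array and 6.07 above the morula mean on the log2 scale. Mean signal was 558 on the 8-cell array and 717 on the 16-cell array, the lowest and highest of the series. The middle over 3' ratio of the cyclophilin control was 0.0115 on the 8-cell array and 0.475 on the 16-cell array. The part of these array differences in the 16-cell values was not tested. With 1 array there is no replicate check, so genes were described by a size rule, at least 4-fold on log2(signal + 16) over both the 8-cell array and the morula mean. MX1 met it, as did 4.19% of all named genes (384 of 9155) and 3.81% of all probe sets, and IFNT2 at 29.9 and UBD at 27.0 did not. Of the 36 interferon-stimulated genes 8 met it, or 22.2%: DTX3L, EIF2AK2, IFI27, IFI6, IFIT5, ISG15, NMI and TRIM25, which were named after their values were seen. ISG15 had 2182 on the 16-cell array, 24.7 on the 8-cell array and 17.1 to 24.5 in morulae. IFI6 had 915 there and at most 65.7 on the other 14 arrays. EIF2AK2, the RNA-activated kinase PKR, had 439 there and at most 33.3 elsewhere, whereas its second probe set had 45.9 there and 110 on morula 3. NMI had 451 there, whereas its second probe set had 3.98. The highest array of the series was the 16-cell array for 12 of the 36 genes (33.3%), against 12.8% of all genes.

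The same array also carried signal of some somatic and stromal genes. In the cumulus and granulosa list 6 of 23 genes (26.1%) met the rule, COL1A2, FST, GJA1, HSD3B1, LUM and VIM, and the summed signal of the list was 21164 on the 16-cell array, 9083 to 13136 in 1-cell embryos and oocytes and 14988 to 18370 in morulae. VIM, the intermediate filament of mesenchymal cells, had 1959 on it and 7.61 to 86.9 on the other 14 arrays. LUM, a collagen-binding proteoglycan, had 1397 on it and 256 on morula 3. GJA1 had 3159 on it, whereas its second probe set had 17.3. COL1A2, a chain of type I collagen, had 2432 on 1 of its 2 probe sets and 5.93 on the other. The blood and immune list had 0 of 21 genes past the rule, with a summed signal of 1937 against 3844 to 4072 in morulae, and PTPRC, the common leukocyte antigen, was at 15.2. HAS2 and PTX3 did not meet the rule, at 4710 and 12.2. TNFAIP6, STAR and VCAN did not meet it either, and fell from the 8-cell to the 16-cell array. TNFAIP6 went from 641 to 12.9, STAR from 4472 to 537 and VCAN from 359 to 177. The median log2 difference of the list between these arrays was 0.23, against 0.19 over all genes. HAS2 alone gave 8622 to 9257 of the morula sums, and 1310 to 1776 of the oocyte sums, from 1 of 3 probe sets that disagreed: another had 8.48 to 11.2 in morulae and 1017 to 3044 in oocytes, and the mean of the 3 changed by 0.05 (limma adjusted p = 0.941). The part of cells carrying these genes in the 16-cell signal of MX1 was not tested.

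**Figure D4:**
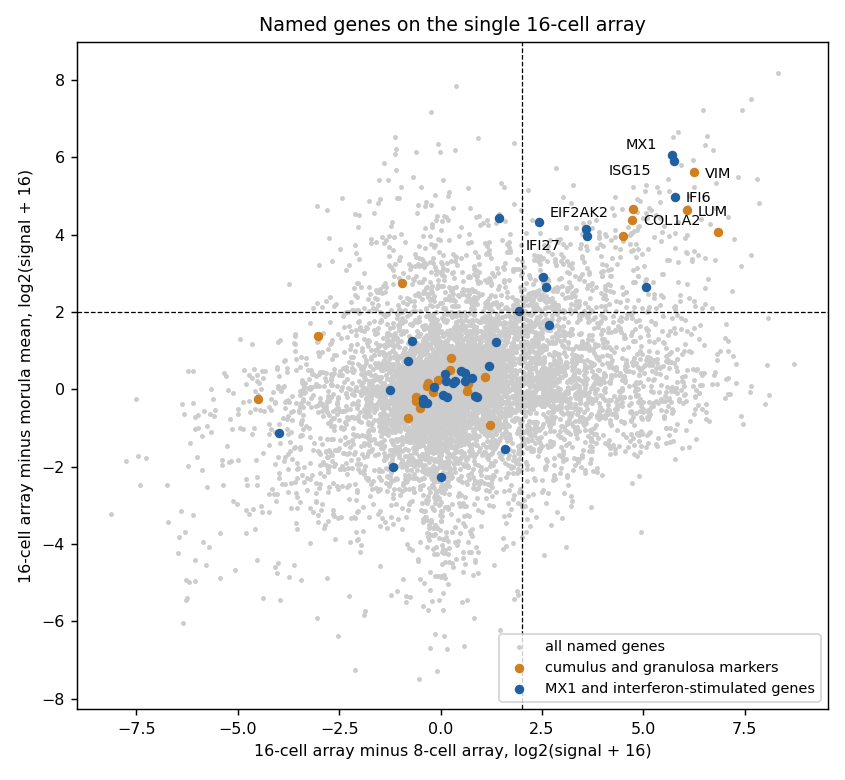
Each named gene's difference on the log2(signal + 16) scale between the single 16-cell array and the 8-cell array (horizontal axis) or the morula mean (vertical axis), with dashed lines at 4-fold, MX1 and the interferon-stimulated genes in blue, cumulus and granulosa markers in orange and all named genes in grey. MX1, at 5.71 and 6.07, lies near ISG15 and among VIM, LUM and COL1A2 in the upper right.

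The factors known to act on interferon tau promoters were compared as a list of 16 measured genes, which also held growth factors and kinases reported to raise interferon tau in trophoblast cells. The list named 26 genes, and those without a probe set were not seen. Between blastocysts and morulae 0 were called by limma (1 higher and 2 lower at an unadjusted p under 0.05). Of all genes 0.175% were called higher and 0.0874% lower there, so a count of 0 does not set the list apart. Against oocytes, 4 were higher and 1 was lower in blastocysts and 3 were higher and 1 lower in morulae. The higher calls were 25.0% and 18.8% of the list, near the 18.1% and 17.8% of all genes, and the lower ones 6.25% in both, against 9.00% and 8.67%. TEAD4, a trophectoderm transcription factor, had 20.8, 44.3 and 37.2 in oocytes, 1170, 1537 and 2904 in morulae and 571, 334 and 1506 in blastocysts, so every morula array lay above every oocyte array. Its change was 3.79 (SE 0.57, limma adjusted p = 0.00134) in blastocysts and 5.16 (SE 0.57, limma adjusted p = 2.35e-04) in morulae, both against oocytes.

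TFAP2A, an AP-2 factor of the trophectoderm, had 908, 1223 and 155 in blastocysts and 35.9, 28.8 and 11.6 in morulae, which did not overlap (3.86, SE 0.70, limma adjusted p = 0.0822). Against oocytes it rose by 4.07 (SE 0.70, limma adjusted p = 0.00286). ETS2, an activator of bovine interferon tau promoters, had 662, 258 and 68.5 in blastocysts and 1036, 759 and 67.4 in morulae, against 22.0 to 63.3 on all earlier arrays, and passed no test. FOS rose by 3.91 against oocytes (SE 1.00, limma adjusted p = 0.0212), a call lost without oocyte 2 or blastocyst 1 or 2 (adjusted p = 0.0799, 0.0785 and 0.0788), and its second probe set had 227 or less throughout. FGF2, a growth factor of the uterine lumen, fell by 3.27 in blastocysts (SE 0.64, limma adjusted p = 0.00553). POU5F1, the pluripotency factor, rose by 1.25 in morulae against oocytes (SE 0.33, limma adjusted p = 0.0245). That call was lost without oocyte 1 or 2 (adjusted p = 0.0867 and 0.0772), without morula 1 or 2 (0.0672 and 0.0783) and with centred arrays (0.0698).

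Among interferon regulatory factors and RNA sensors, 14 measured genes gave 0 calls by limma between blastocysts and morulae (0 higher and 1 lower at an unadjusted p under 0.05) and 2 higher and 2 lower in blastocysts against oocytes. That was 14.3% each way, where 18.1% of all genes were higher and 9.00% lower. IRF8, a factor of immune cells, had 4960 ± 1636 in oocytes, 139 ± 13.1 in morulae and 168 ± 19.0 in blastocysts (SD, n = 3 each), a change of -4.71 (SE 0.34, limma adjusted p = 3.11e-05) in blastocysts, and its second probe set had 46.8 to 76.9 in blastocysts and 94.2 to 217 in oocytes. NFKBIA, the inhibitor of NF-kappa-B, changed by -5.24 (SE 0.72, limma adjusted p = 8.23e-04). IRF3, which drives interferon beta in infected cells, rose by 3.15 (SE 0.82, limma adjusted p = 0.0228), a call lost without oocyte 1 or 2 or blastocyst 3 (adjusted p = 0.0844, 0.0611 and 0.0645).

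Only 3 of the 20 type I interferon genes listed had a probe set named for them, IFNT2, IFNAC and IFNB1. IFNAC, an interferon alpha, had 26.5 to 83.3 over all 15 arrays and changed by -0.01 between blastocysts and morulae (SE 0.27, limma adjusted p = 1). IFNB1 had 2.63, 2.63 and 4.50 in blastocysts and 17.4, 80.9 and 141 in oocytes (-2.05, SE 0.67, limma adjusted p = 0.0606). In this list IFNT2 was the gene called, in both blastocyst comparisons.

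UBD was set beside the genes of its own conjugation and of the proteasome. Of 7 measured partners of FAT10, 0 were called between blastocysts and morulae (0 at an unadjusted p under 0.05 as well), and 2 (28.6%) were higher in blastocysts than in oocytes, where 18.1% of all genes were. With 7 genes that share is read as no more than the background. HDAC6, which binds FAT10 and carries it to aggresomes in human cells, had 8.93 to 14.8 in oocytes, 910, 1080 and 1495 in morulae and 429, 518 and 1553 in blastocysts, a change of 4.67 (SE 0.49, limma adjusted p = 1.83e-04) in blastocysts. VCP, an unfolding ATPase that works with FAT10 and the proteasome, rose by 1.92 (SE 0.22, limma adjusted p = 3.25e-04). UBA6, the enzyme that activates FAT10, had 57.7, 162 and 8.53 in oocytes, 220, 351 and 146 in morulae and 177, 323 and 13.0 in blastocysts, which overlapped. UBE2Z, its conjugating enzyme, had 406, 380 and 618 in blastocysts and 127 to 629 in oocytes.

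The immunoproteasome and antigen presentation list, 18 measured genes, had 4 higher and 0 lower in blastocysts against oocytes, with a median of 1.05 against 0.11 over all genes. The higher calls were 22.2% of the list, near the 18.1% of all genes, and 0 were called between blastocysts and morulae (2 higher and 0 lower at an unadjusted p under 0.05). PSME1, a subunit of the interferon-induced proteasome activator, had 73.8 ± 54.9 in oocytes, 2616 ± 1061 in morulae and 2809 ± 475 in blastocysts (SD, n = 3 each), a change of 5.19 (SE 0.71, limma adjusted p = 8.14e-04) in blastocysts. BOLA, a major histocompatibility class I chain of cattle, had 142, 235 and 55.1 in oocytes, 645, 1170 and 821 in morulae and 5434, 905 and 3512 in blastocysts, and rose by 4.2 against oocytes (SE 0.70, limma adjusted p = 0.00231). PSMB8, an immunoproteasome subunit, had 38.8 to 42.4 in blastocysts and 27.9 to 37.8 in oocytes and was not called.

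Markers of the trophectoderm, the tissue that makes interferon tau, were the next list. Of 29 measured genes, 16 were higher and 1 was lower in blastocysts against oocytes, with a median of 2.46 against 0.11 over all genes. These were 55.2% and 3.45% of the list, where 18.1% of all genes were called higher and 9.00% lower. Between blastocysts and morulae the median was 0.50, against -0.04 over all genes. At an unadjusted limma p under 0.05, 8 were higher and 1 was lower, where 418 and 434 of all 9155 genes were. By limma 0 were called after adjustment, and 0 to 2 were called higher over the 18 alternative fits. That count depended on the probe set read for TKDP1, a trophoblast Kunitz domain protein. Its probe set of higher mean had 157, 200 and 333 in blastocysts and 116, 147 and 147 in morulae (0.63, SE 0.40, limma adjusted p = 0.797), while its second had 139, 92.3 and 149 in blastocysts and 19.6, 36.5 and 13.9 in morulae and was called (1.88, SE 0.27, limma adjusted p = 0.0382). PTGS2, the prostaglandin synthase of the trophectoderm, had 1855, 6410 and 2598 in blastocysts and 259, 74.4 and 137 in morulae, which did not overlap (4.34, SE 0.80, limma adjusted p = 0.0846). HSD3B1, a steroid dehydrogenase of placenta and granulosa cells, belonged to the cumulus and granulosa list and was the 1 of its 23 genes called between these stages. It had 1458, 3867 and 2148 in blastocysts and 44.0, 23.3 and 39.0 in morulae, a change of 5.51 (SE 0.42, limma adjusted p = 0.00352).

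The genes with the most similar signals over the 15 arrays were ranked by Pearson's r of log2(signal + 16), among 8067 probe sets with 1 symbol and a signal over 200 on some array. The 15 points share stages and arrays, so each r is a description, and the course of the genes named by it was fixed by that choice and was given no test. IFNT2 and UBD correlated at 0.945 with each other, and MX1 correlated at -0.052 with IFNT2 and -0.056 with UBD. IFNT2 was most like PRSS8 (r = 0.974), a serine protease of epithelia, then DPEP1 (0.972), BCAM (0.958), ELMO3 (0.955) and PLBD1 (0.954). PRSS8 had 276, 244 and 514 in blastocysts and 31.3, 22.4 and 1.69 in morulae.

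UBD was most like SLC13A4 (r = 0.971), a sulfate transporter, then KRT8 (0.959), TMEM220 (0.956), PLBD1 (0.95) and BIVM (0.947). SLC13A4 had 226, 622 and 293 in blastocysts and 30.5, 30.2 and 15.4 in morulae. KRT8, the partner keratin of KRT18 in simple epithelia, had 621, 648 and 354 in blastocysts and 142, 46.4 and 22.8 in morulae. PLBD1 was the 1 gene among the 5 nearest of both.

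MX1 was most like GEM (r = 0.937), ISG15 (0.923), G0S2 (0.920), ERGIC2 (0.887) and CDH2 (0.886), and without the 16-cell array these were 0.908, 0.867, 0.858, 0.814 and 0.792. GEM had 868, 379 and 2175 in oocytes, 2.99 to 21.2 in the embryos other than the 16-cell array, and 3296 on that array. G0S2, an inhibitor of fat breakdown, had 90.7, 58.8 and 493 in oocytes, at most 9.98 in the other embryos and 764 on the 16-cell array. CDH2, the neural cadherin, had 876 on the 16-cell array and 51.3 to 173 in oocytes. Oocyte 3 was the highest oocyte array for MX1, GEM, ISG15, G0S2 and CDH2. Between blastocysts and morulae GEM, ISG15 and G0S2 differed by -0.04, -0.16 and -0.07, and MX1 by 1.37.

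**Figure D5:**
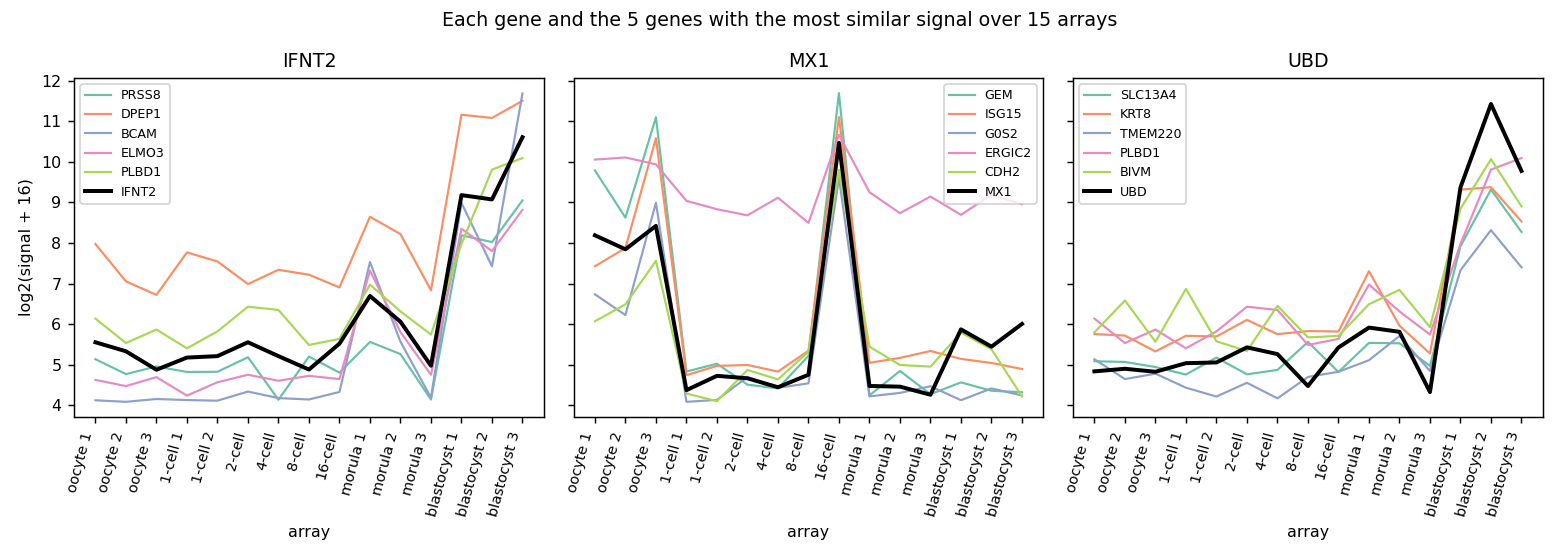
Log2(signal + 16) on the 15 arrays (horizontal axis, in stage order) of each gene (black) and the 5 genes most similar to it by Pearson's r (colours), with lines joining arrays to guide the eye. Lines are to be compared in shape, since levels of different probe sets are not comparable, and the MX1 set peaks in oocytes and on the 16-cell array while the IFNT2 and UBD sets peak in blastocysts.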

How the data were processed

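RNA was extracted with the mirVana kit, amplified in 3 rounds and biotin-labelled for Affymetrix arrays, per the labels. The authors deposited linear intensities of 24128 probe sets. Summary method, scaling and software: not given in the sources used here. The lowest value was 0.39 and the highest 20788, and 2.56% equalled 1. Groups came from the titles. Without 112 controls, 24016 probe sets were tested on log2(value + 16) by limma 3.58.1 (R 4.3.3), with a mean per stage over all 15 arrays, a variance trend, 7 residual degrees of freedom and Benjamini-Hochberg adjustment at 0.05. The labels call replicates biological without naming their origin, so p-values cover only the spread among these arrays. Platform symbols were updated through RefSeq ARS-UCD2.0: 13292 probe sets had 1 symbol, 86 several and 10638 none. Each gene in a list was read from its probe set of highest mean. The list counts at an unadjusted limma p under 0.05 have a background over all 9155 genes. It was 418 higher and 434 lower for blastocysts against morulae, and 646 and 180 for 1-cell embryos against oocytes.

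The members and lists were chosen with earlier results of these data known, so lists are described by counts, medians and summed signals, with no test of a list. Named genes were up to 4 per list and comparison with the largest called change, the 4 highest means of the receptor and antiviral lists, and 5 similar genes per member. Other genes given with values were chosen after their values were seen. Same-numbered arrays deviated together, at 0.142, 0.107 and 0.182 between morulae and oocytes, 0.195, 0.106 and 0.306 between blastocysts and morulae, and 0.278, 0.276 and 0.285 between blastocysts and oocytes, but at 0.183 and -0.115 between 1-cell embryos and oocytes. The replicate block was thus run as a possible pairing of oocytes, morulae and blastocysts, which the labels do not state. No correlation was computed between arrays of different numbers. In these stages the arrays numbered 1 lacked spike-in signal and those numbered 3 had it. These correlations therefore do not tell a pairing apart from the spike-in class. Alternatives were other scalings, filters, pseudocounts and variance models, blocks, subsets of arrays and leaving out each replicate. The fit was tested on simulated data. No genome or sequence table was used here, so promoters and proteins are not analysed here.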

Additional observations from a re-analysis of the deposited data

How the results depend on the processing

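Counts of called probe sets moved most. For 1-cell embryos against oocytes (65) they were 38 with quantile normalization, 35 with centred arrays, 42 with a pseudocount of 1, 110 without the variance trend, 38 with the replicate block, 28 over gene means and 419 without the arrays numbered 3, and 0 in the fits of the compared stages alone or of either spike-in class. For blastocysts against morulae (40) they were 13 and 66 with pseudocounts of 1 and 64, 95 without the arrays numbered 3, and 0 in the compared stages alone and in either class. For morulae against oocytes (4550) they were 7102 without the arrays numbered 3, and both this count and that of blastocysts against oocytes (4624) were 0 with spike-in arrays alone. Leaving out single arrays gave 8 to 169, 3 to 71, 3260 to 4964 and 3414 to 4821 calls for 1-cell embryos against oocytes, blastocysts against morulae, morulae against oocytes and blastocysts against oocytes.

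For 1-cell embryos against oocytes, IFNT2 changed by 0.11 with spike-in arrays alone and by -0.25 to 0.09 on leaving out single arrays (0.09 without oocyte 1), UBD by -0.05 with the replicate block, and MX1 lost its call at -3.60 in the compared stages alone, -3.82 without and -3.41 with spike-in signal. For morulae against oocytes with spike-in arrays alone, IFNT2 was -0.13, UBD -0.54 and MX1 -3.87 without a call. For blastocysts against morulae, calls were lost by IFNT2 at 4.19 and UBD at 5.76 (pseudocount 1), 3.71 and 4.84 (compared stages alone), 2.75 and 4.53 (without spike-in signal) and 5.63 and 5.45 (with it), and by IFNT2 with the replicate block (3.71). Leaving out single arrays gave 3.22 to 4.10 for IFNT2 and 4.22 to 5.25 for UBD. IFNT2 lost its call without morula 2, morula 3 or blastocyst 2, and UBD lost its call without morula 2. For blastocysts against oocytes with spike-in arrays alone, IFNT2 was 5.50, MX1 -2.13 and UBD 4.91, all without a call. Of the members' other results under these alternatives none changed direction or call, and the replicate block changed no other call of the members. Fits of 1 spike-in class had fewer arrays; the cause of the other changes was not tested.

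Centring moved the median of all probe sets to -0.14 for morulae against oocytes (0.04 as deposited) and to -0.16 for blastocysts against oocytes (0.01 as deposited), and no member's call changed with it. Named genes kept their call in 1159 of 1345 alternatives and lost it in 186, with 0 turned in direction. Signal over background was not known, so low signals carry no order.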

Other observations

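Some genes of the inner cell mass and hypoblast, the inner cell populations of the blastocyst, were higher in blastocysts and in morulae than in oocytes. Of 13 measured markers 6 (46.2%) were higher in blastocysts and 5 (38.5%) in morulae, where 18.1% and 17.8% of all genes were, and 7 and 8 did not pass. Between blastocysts and morulae 0 were called by limma (1 higher and 0 lower at an unadjusted p under 0.05). GATA6, a hypoblast factor, was higher by 5.18 in blastocysts (SE 0.58, limma adjusted p = 2.62e-04) and by 5.16 in morulae (SE 0.58, limma adjusted p = 2.56e-04), and FN1, fibronectin, by 5.09 (SE 0.52, limma adjusted p = 1.68e-04) and 4.80 (SE 0.52, limma adjusted p = 2.20e-04). In the blood and immune list 1 of 21 genes was higher and 0 were lower in blastocysts than in oocytes, and 3 were higher and 0 lower in morulae. These were 4.76% and 14.3% of the list, where 18.1% and 17.8% of all genes were called higher. CD48 was higher by 5.50 in blastocysts (SE 0.47, limma adjusted p = 6.04e-05), with 1377, 4255 and 3020 in blastocysts and 23.9 to 55.1 in oocytes, and by 4.93 in morulae (SE 0.47, limma adjusted p = 1.07e-04). The other genes called in morulae were HBB, a beta globin, with 1382, 1437 and 232 in morulae and 18.2 to 30.3 in oocytes (4.36, SE 0.81, limma adjusted p = 0.00435), and AIF1, a macrophage protein, with 44.7 to 64.2 in morulae and 12.4 to 26.2 in oocytes (0.98, SE 0.22, limma adjusted p = 0.0102). PTPRC lay between 13.3 and 37.0 on all 15 arrays.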
